A study of Mus musculus with 4 samples.

Results

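Subunits of the oxidative phosphorylation machinery were followed in mouse liver across genotype and diet. They were chosen by gene symbol as every gene named Nduf, Sdha to Sdhd, Uqcr, Cox4 to Cox8 or Atp5, with Cycs and Cyc1 added, and were read only from probe sets annotated to 1 gene. This gave 73 of the 8251 genes on the array, read by 101 of 10833 probe sets. Complex I had 31 genes, complex II 4, complex III 8, cytochrome c 1, complex IV 15 and complex V 14. Of these, 3 were no structural subunits (the complex I assembly factors Ndufaf1 and Ndufaf4, and Cox7a2l, which acts in supercomplex assembly), and 5 were isoforms known from muscle or testis (Cox6a2, Cox6b2, Cox7a1, Cox8b and Cox8c).

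All mice were female, 8 months old and in the fed state at death, with no strain named in the labels. Wild-type mice and HSL-null mice, a general knockout of hormone-sensitive lipase (gene Lipe), ate, for 6 months, either a normal diet (ND), in which fat supplied 11% of the energy, or a fat-rich one (FD), in which it supplied 58%. The livers of 6 mice were pooled in each group except HSL-null on FD, with 4. Each pool was hybridised to 1 Affymetrix array, so there were no replicates and no tests, and every comparison below is between single pools. In a bulk sample, fewer cells of a type and less RNA per cell cannot be told apart.

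Oxidative phosphorylation takes place in the inner mitochondrial membrane. Complex I accepts electrons from NADH and complex II from succinate; complex III passes them through cytochrome c to complex IV, which reduces oxygen. The proton gradient built on the way drives ATP synthesis by complex V. Most subunits are encoded in the nucleus, as are all members here, while a small set of core subunits is encoded by mitochondrial DNA. In liver the chain reoxidises the NADH and reduced flavins that fatty acid oxidation and the citrate cycle produce.

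A floor of 6.1, the 25th percentile of signals, was set under all values, and genes were kept where the brightest probe set had a mean signal over the 4 arrays of 26.9 or more, which is the median of probe set means. This kept 4829 genes, among them 64 of the 73 members: 28 of complex I, 4 of complex II, 8 of complex III, cytochrome c, 11 of complex IV and 12 of complex V. No kept member lay at the floor on any array. Their signals were high, with 78.1% of them (50 of 64) above the 75th percentile of the kept genes, although signal also depends on the probes. The 9 members under the filter were Ndufa1, Ndufa12, Ndufc2, Cox5a, Cox6a2, Cox7a1, Cox8a, Atp5g1 and Atp5j2, with mean signals from 4.08 for Cox8a to 21.3 for Ndufa1. Several of these encode ubiquitous subunits, so a low signal on this array is not evidence of a low transcript level.

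The part of the error of a log2 ratio that differs between probe sets of a gene was estimated from genes with more than 1 probe set. Its SD was 0.298 over 687 genes, and 0.19 over the 66 genes with both probe sets at or above 317.5, the lower quartile of the members' signals. Error that all probe sets share on an array is not in these values. Nor is variation between pools that the probe sets of a gene share. Lipe had signals of 28.0 and 34.0 on the wild-type ND and FD arrays and of 11.9 and 15.9 on the HSL-null ones. Median signals of the arrays ranged from 25.2 to 28.3, lowest in wild type on FD and highest in HSL-null on FD. The 95th percentile of signals was 648.4 and 682.9 on the wild-type ND and FD arrays, and 669.4 and 643.1 on the HSL-null ones. The 3′ to 5′ ratios of control probe sets ranged from 0.838 to 0.867 for Gapdh, from 1.32 to 1.49 for Actb and from 2.17 to 2.82 for Tfrc. Control signals differed with diet: on the ND and FD arrays, 18S probe sets had 192.2 and 84.2 in wild type against 307.1 and 99.1 in the knockout, and hybridisation spikes 482 and 308.4 against 409.5 and 328.1, both lowest in wild type on FD. The run settings name a different solution lot for each genotype, so the lot cannot be told apart from the genotype, while each diet comparison lies within 1 lot. The 13 hepatocyte markers measured of 15 listed were all above the floor and had summed signals of 43142 (ND) and 31536 (FD) on the wild-type arrays, against 37820 and 33336 on the HSL-null ones. Summed macrophage markers (11 of 13) were also lowest in wild type on FD, at 2096, against 2745 to 3226, and exocrine pancreas markers (8 of 14) were highest in wild type on ND, at 986.9, against 332.7 to 384.9. Lymphocyte markers (9 of 11, with 2 at the floor on all arrays) summed to 259.3 in wild type on FD, against 301.4 to 517.6. Red blood cell markers (7 of 9) were highest in wild type on FD, at 4282.5, against 3407.9 to 3992.1. The part of these signal levels, controls and cell type markers in the results below was not tested.

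Oxidative phosphorylation genes had their highest signal most often in wild-type liver on FD. This was so for 40 of 64 members, or 62.5%, against 25.4% of all 4829 genes. Wild type on ND was highest for 9 members (29.9% of all genes), HSL-null on ND for 8 (15.7%) and HSL-null on FD for 7 (29%). In complex I it held for 23 of 28 members and in complex III for 5 of 8. In complex IV it held for 6 of 11 and in complex V for 4 of 12. The lowest signal lay in HSL-null liver on FD for 29 members (45.3%, against 20% of all genes) and in wild-type liver on ND for 24 (37.5%, against 24.6%). These counts of highest and lowest arrays were made in the deposited signals only. They were not made for other genes of similar signal.

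**Figure D1:**
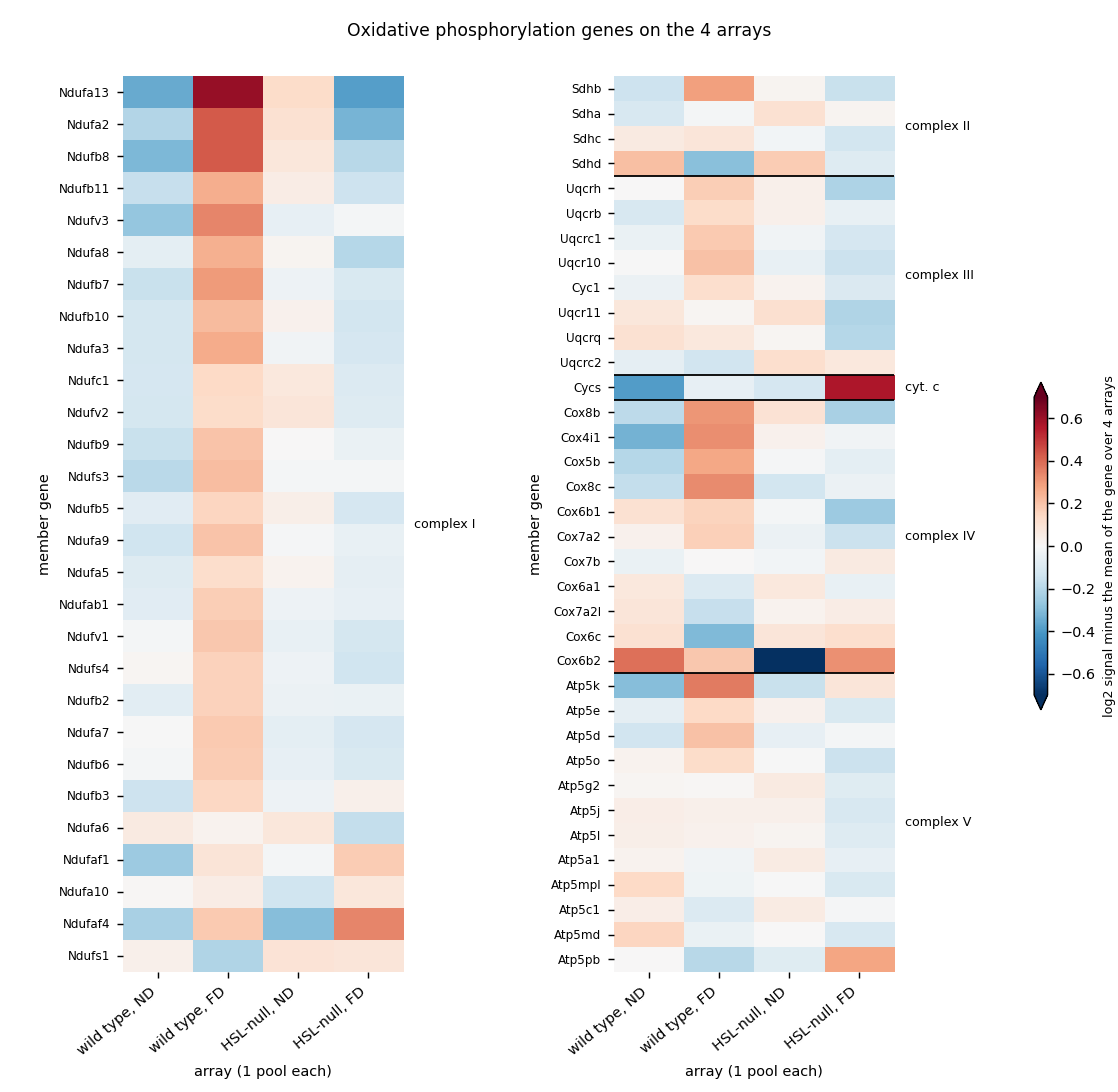
Log2 signal of each of the 64 kept members on the 4 arrays, minus the gene's mean over those arrays (colour, red for higher, ending at 0.7 in each direction), with genes in rows by complex and arrays in columns. The wild-type FD column is red for most of complex I and pale for most of complex V, and Cycs is highest in HSL-null on FD.

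In wild-type liver, members were higher on FD than on ND, and complex I stood at the front. The median log2 ratio of FD to ND over the 64 members was 0.20, against -0.047 over all genes, and 46 members lay above 0, where 44% of all genes did, and 18 below it (55.7%). With a log2 ratio of 0.322 as the mark, an increase by 25%, 21 members were higher by at least that much (15.8% of all genes) and 2, Sdhd and Cox6c, were lower (24%). None was 2-fold higher (0.787% of all genes) or lower (2.36%). The median was 0.30 in complex I, with 26 of 28 members above 0 and 13 past the mark. It was 0.17 in complex III, with 5 of 8 above 0, 0.059 in complex II and 0.052 in complex IV. Complex V had a median of -0.013, with 4 of 12 above 0; its median lay above 0 with median scaling and with quantile normalization. Dividing each array by its median signal (median scaling) moved the median of all genes to 0.096 and put 54 members above 0, while 39.9% of all genes were below it. Without complex I the median of the remaining members was 0.050. Among 644 other genes whose signals lay between the quartiles of the members, chosen after the data were seen, the median was 0.053.

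In HSL-null liver the diet ratio of most members lay on the other side of 0, but it was small. The median of FD to ND was -0.093, against 0.041 over all genes, and 50 of 64 members lay below 0, where 42.8% of all genes did. Past the 0.322 mark, 4 members were lower (7.29% of all genes) and 4 higher (14.5%), and of these Cox6b2 was over 2-fold higher (0.828%) while none was 2-fold lower (0.621%). All 4 members of complex II and all 8 of complex III were below 0, with medians of -0.14 and -0.11, and complex I had 23 of 28 below 0 with a median of -0.069. Complex IV had 6 of 11 below 0 and a median of -0.054, and complex V 9 of 12 and -0.11. This shift depended on how the arrays were scaled: cyclic loess gave 33 members below and 31 above 0 with a median of -0.003, quantile normalization 38 and 25 with -0.017, and median scaling 57 and 7 with -0.25, with 15 members lower and 3 higher past the mark. The shares of all genes below 0 were 49.5% with cyclic loess, 49.1% with quantile normalization and 67.7% with median scaling, under which 18.4% were lower and 6.42% higher past the mark. The genes of like signal had a median of -0.028 as deposited, with 57.3% below 0.

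**Figure D2:**
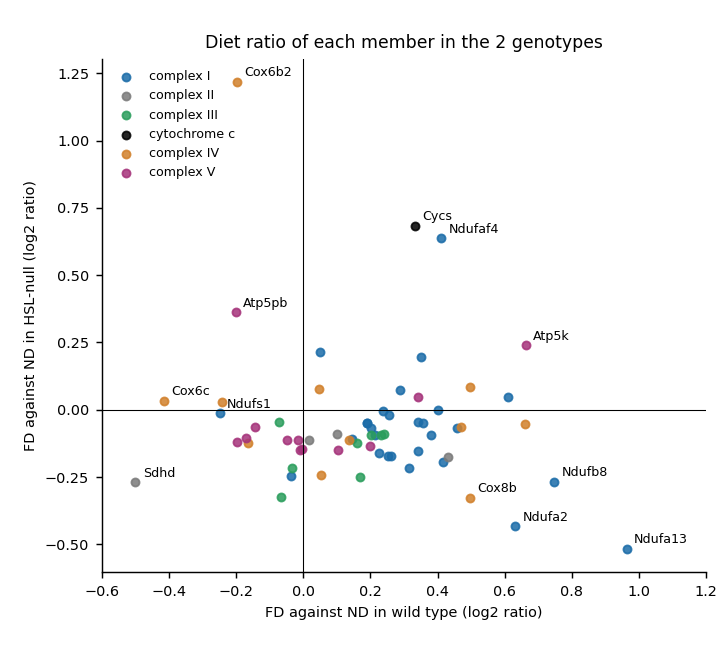
Log2 ratio of FD to ND for each of the 64 members in wild type (horizontal) and in HSL-null (vertical), coloured by complex. In the deposited signals, the lower right area, higher on FD in wild type and lower in HSL-null, holds 36 members, 21 of them from complex I.

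The 2 diet ratios share no array. As deposited, 36 of the 64 members (56.2%) were higher on FD in wild type and lower in HSL-null, against 20.3% of all genes. Only 4 members went the opposite way, against 33.2% of all genes. In complex I these counts were 21 and 0 of 28, and in complex V 2 and 1 of 12, where 7 were lower on FD in both genotypes. These counts were not made under other scalings. The HSL-null side depended on scaling, as cyclic loess put 31 members above 0 there.

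The genotype ratios use the same 4 arrays as the diet ratios. On ND the genotypes were close, with a median log2 ratio of the knockout to wild type of 0.046 over the members and -0.018 over all genes. Here 42 members lay above 0 (47.3% of all genes) and 22 below (52.6%). Past the 0.322 mark, Ndufa13, Ndufb8 and Cox4i1 were higher (9.77% of all genes) and Cox6b2 was lower (15.1%). Cox6b2 was the 1 member over 2-fold lower (1.08% of all genes), and none was 2-fold higher (0.497%). Median scaling put 60 members above 0, with the median of all genes at 0.112 and 33.6% of them below 0; 12 members were then higher past the mark, as were 20% of all genes. The 644 genes of like signal had a median of 0.043, against 0.046 for the members. On FD the median was -0.23, against 0.067 over all genes, with 49 members below 0 (41.5% of all genes) and 15 above (58.3%). Past the mark, 17 members were lower (12.7% of all genes), and 3, Cycs, Cox6c and Atp5pb, were higher (24.5%). None was 2-fold lower (0.953% of all genes) or higher (1.86%). Median scaling put 57 members below 0, with 42 lower and 1 higher past the mark and the median of all genes at -0.101; 61.1% of all genes were then below 0 and 25.1% lower past the mark. The genes of like signal had a median of -0.046 as deposited, with 55.6% below 0. The medians on FD were -0.26 in complex I, -0.25 in complex III, -0.32 in complex IV, -0.11 in complex V and -0.091 in complex II. The median of complex IV was 0.042 with the filter at the 75th percentile of signals, which left out its dimmer genes.

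The difference between the genotype ratios, FD minus ND, had a median of -0.27 over the members and 0.092 over all genes. It was below 0 for 49 members (41.7% of all genes) and below 0 by at least 0.322 for 25 members (18.1%), of which 15 belonged to complex I. Only 4 were as far above 0 (31.5% of all genes). Past 2-fold lay Ndufa13, Ndufa2 and Ndufb8 below 0 (1.39% of all genes) and Cox6b2 above it (4.93%). The median was -0.39 in complex I, -0.29 in complex III, -0.25 in complex IV, -0.16 in complex II and -0.12 in complex V. Under median scaling the median was -0.56 over the members and -0.206 over all genes. Then 60 of 64 members lay below 0 (67% of all genes), and past the mark 49 were lower (40%) and 1 was higher (14.5%). The genes of like signal had a median of -0.10 as deposited, with 59.9% below 0. Under median scaling some differences above 0 changed sign, such as those of Ndufs1 (0.237 as deposited), Sdhd (0.231) and Uqcrc2 (0.028).

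**Figure D3:**
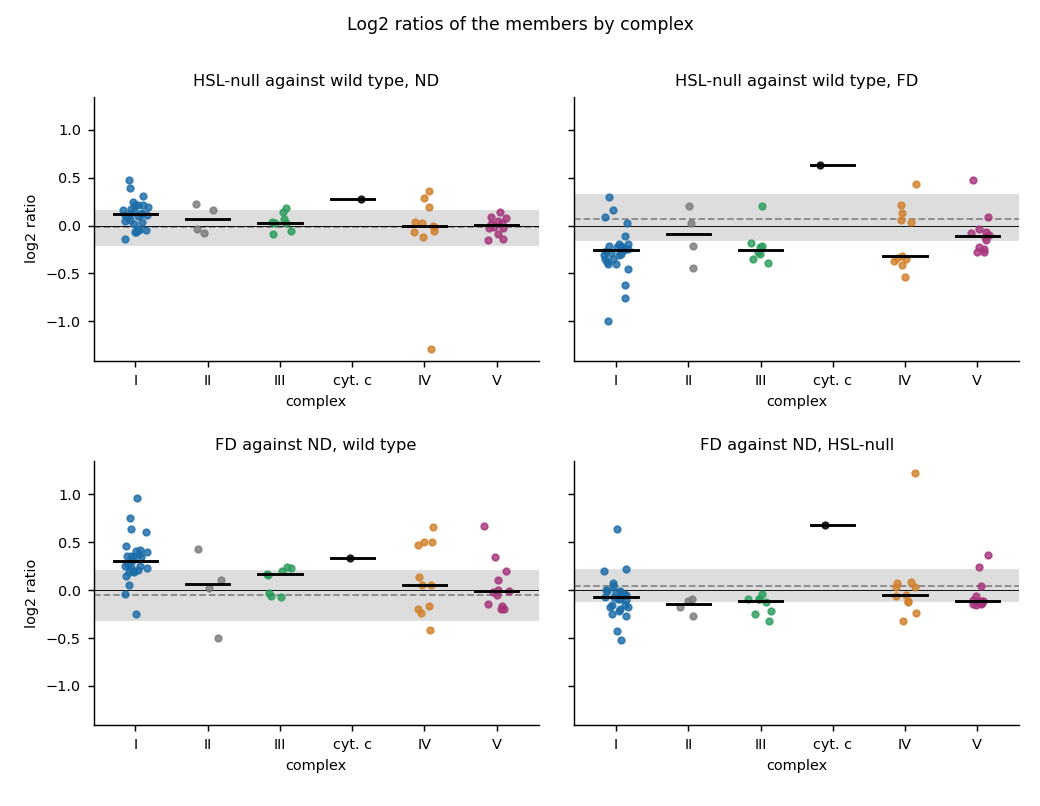
Log2 ratio of each kept member in the 4 comparisons, by complex (points, spread sideways for legibility), with the median of each complex (black bar), and the quartiles (grey band) and median (dashed line) of all 4829 genes. The complex I points lie above the dashed line in the panel for diet in wild type, except Ndufs1, and mostly below it in the panel for genotype on FD.

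Promoters were examined for letters bound by factors known to act on respiratory genes. RefSeq sequences of the build GRCm38.p6, from 250 bases before to 50 after the gene start, were found for 59 of the 73 members. Both strands were searched for exact letters, with N for any base. The NRF1 motif was GCGCA, then N, then GCGC, and that of the ETS family, which includes GABP, was CCGGAAG. The others were AANATGGC (YY1) and AAGGTCA (bound by estrogen-related receptors). A site that departs from these letters was not counted. Matches to different motifs did not overlap in the members. The NRF1 letters were in 12 of 59 members, or 20.3%, against 12.5% of kept genes and 4.6% of all 32851 promoters. The ETS letters were in 27.1%, against 21.3% and 8.86%, the YY1 letters in 22%, against 10.8% and 6.05%, and the receptor letters in 8.47%, against 4.51% and 4.72%. Complex I had the YY1 letters in 9 of 28 genes and each of the NRF1 and ETS letters in 4. Of the 13 members with YY1 letters, 6 had them after the gene start as AAGATGGC, which contains the start codon letters ATG.

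The 150 bases before the start are shown for 5 members that mark the range of the data: Ndufa13 and Ndufb8 of complex I, with differences past 2-fold, the complex V gene with the highest diet ratio in wild type, the member with the lowest, and Cycs. Each is written on the strand of the gene, which is the minus strand in all 5, and capitals mark motif matches. They are Ndufa13 at chr8:69902021-69902170, Ndufb8 at chr19:44555443-44555592, Atp5k at chr5:108434400-108434549, Sdhd at chr9:50603850-50603999 and Cycs at chr6:50566570-50566719.
Ndufa13: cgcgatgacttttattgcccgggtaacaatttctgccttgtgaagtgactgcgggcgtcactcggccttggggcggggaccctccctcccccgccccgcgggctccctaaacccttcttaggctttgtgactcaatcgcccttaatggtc
Ndufb8: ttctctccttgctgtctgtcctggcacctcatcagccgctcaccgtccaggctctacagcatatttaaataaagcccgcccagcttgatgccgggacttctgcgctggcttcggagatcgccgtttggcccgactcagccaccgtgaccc
Atp5k: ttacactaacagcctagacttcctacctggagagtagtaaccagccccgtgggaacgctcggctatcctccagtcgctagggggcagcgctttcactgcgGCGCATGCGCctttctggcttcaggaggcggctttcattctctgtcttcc
Sdhd: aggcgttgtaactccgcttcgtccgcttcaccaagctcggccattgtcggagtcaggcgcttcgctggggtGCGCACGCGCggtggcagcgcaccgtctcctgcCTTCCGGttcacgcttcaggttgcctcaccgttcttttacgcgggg
Cycs: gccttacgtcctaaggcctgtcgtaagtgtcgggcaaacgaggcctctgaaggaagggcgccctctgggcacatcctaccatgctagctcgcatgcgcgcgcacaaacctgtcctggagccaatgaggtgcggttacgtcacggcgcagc
Atp5k and Sdhd had diet ratios of 0.66 and -0.50 in wild type, the highest of complex V and the lowest of all members. Both held the NRF1, ETS and receptor letters in the searched window. Those of the receptor in both, and the ETS letters of Atp5k, lay after the start and outside the stretch shown. Ndufa13 and Cycs held no exact match to any of the 4 in the window, and Ndufb8 held only YY1 letters, after the start. The stretch of Cycs has t in place of the first g of the NRF1 letters, followed by cgcatgcgc, and so was not counted. Over the kept members with a promoter, the median difference of the genotype ratios was -0.20 for the 12 with NRF1 letters and -0.29 for the 39 without, and -0.39 for the 12 with YY1 letters and -0.26 for the 39 without. Of the 13 members with YY1 letters, 9 belong to complex I, the complex with the lowest median of this difference. For the ETS letters the medians were -0.26 (15 members) and -0.28 (36), and for the receptor letters -0.24 (5) and -0.28 (46).

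Complex I is an L-shaped enzyme whose matrix arm takes electrons from NADH and whose membrane arm pumps protons. Of its kept members, 22 were supernumerary subunits, which surround the catalytic core and are needed for its assembly and stability, and 4 were core subunits. Ndufa13, a supernumerary subunit also known as GRIM-19, had signals of 446.3 (ND) and 869.9 (FD) on the wild-type arrays, against 622.6 and 435.4 on the HSL-null ones. It was 1.95-fold higher on FD in wild type and 1.43-fold lower on FD in HSL-null. Ndufa2, a supernumerary subunit of the matrix arm, had 418.7, 648.7, 518.7 and 384.4 in the same order. Ndufb8, of the membrane arm, had 533.4, 895.7, 700.4 and 581.5. In all 3 genes wild type on FD was highest, HSL-null on ND second, and wild type on ND and HSL-null on FD lowest, so the genotype ratio changed its sign with diet: it was 0.48, 0.31 and 0.39 on ND and -0.999, -0.76 and -0.62 on FD.

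The other 19 supernumerary subunits, set apart here after the values were seen, had smaller ratios. On FD against ND in wild type, 18 of 19 were above 0 (44% of all genes), with a median of 0.26. In the genotype ratio on FD, 18 of 19 were below 0 (41.5% of all genes), with a median of -0.26. The genotype ratio changed its sign from above to below 0 with diet in 15 of the 19. The share of all genes that did so was not computed. Ndufa7, Ndufb6 and Ndufs4 were below 0 on both diets, and Ndufa10 was below 0 on ND and at 0.023 on FD. Ndufb5, with the highest signal in complex I, had signals of 1662 and 1944 on the wild-type ND and FD arrays and of 1807 and 1619 on the HSL-null ones. Ndufa3 had 1264 and 1646, and 1354 and 1268. Its dimmer probe set had 37.6, 32.1, 30.6 and 29.5 in the order used above and gave a diet ratio of -0.23 in wild type, opposite to the 0.38 of the brighter one.

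Among the core subunits, Ndufs3, Ndufv1 and Ndufv2 followed the supernumerary ones and Ndufs1 did not. Ndufs3, which lies where the matrix arm meets the quinone site, had signals of 759.3 and 1003 on the wild-type ND and FD arrays and of 856.3 and 855.2 on the HSL-null ones. Ndufv1, which binds NADH, had 1265 and 1456, and 1233 and 1175, and its iron-sulfur partner Ndufv2 had 757.8 and 901.9, and 876.2 and 777.4. Each was highest in wild type on FD. Ndufs1, the largest iron-sulfur subunit, had 343.4 and 288.9, and 357.4 and 354.4, and was lowest in wild type on FD.

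Assembly factors of complex I did not share 1 pattern. Ndufaf4 had signals of 46.7 and 62.1 on the wild-type ND and FD arrays and of 44.6 and 69.4 on the HSL-null ones, with diet ratios of 0.41 and 0.64. Ndufaf1, named here after its values were seen, had diet ratios of 0.35 and 0.20, so both were higher on FD in each genotype. Acad9 and Foxred1, which also serve complex I assembly and come from the list of assembly factors, differed from them. Acad9 had 65.3 and 128.8 on the wild-type arrays, 80.9 and 90.7 on the HSL-null ones, highest in wild type on FD. Foxred1, also named after its values were seen, had 125.9 and 131.6, and 140.5 and 112.6, lowest in HSL-null on FD. On FD, Ndufaf4 and Ndufaf1 were higher in HSL-null than in wild type, while Acad9 and Foxred1 were lower. So were 24 of the 26 structural subunits of complex I (41.5% of all genes).

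**Figure D4:**
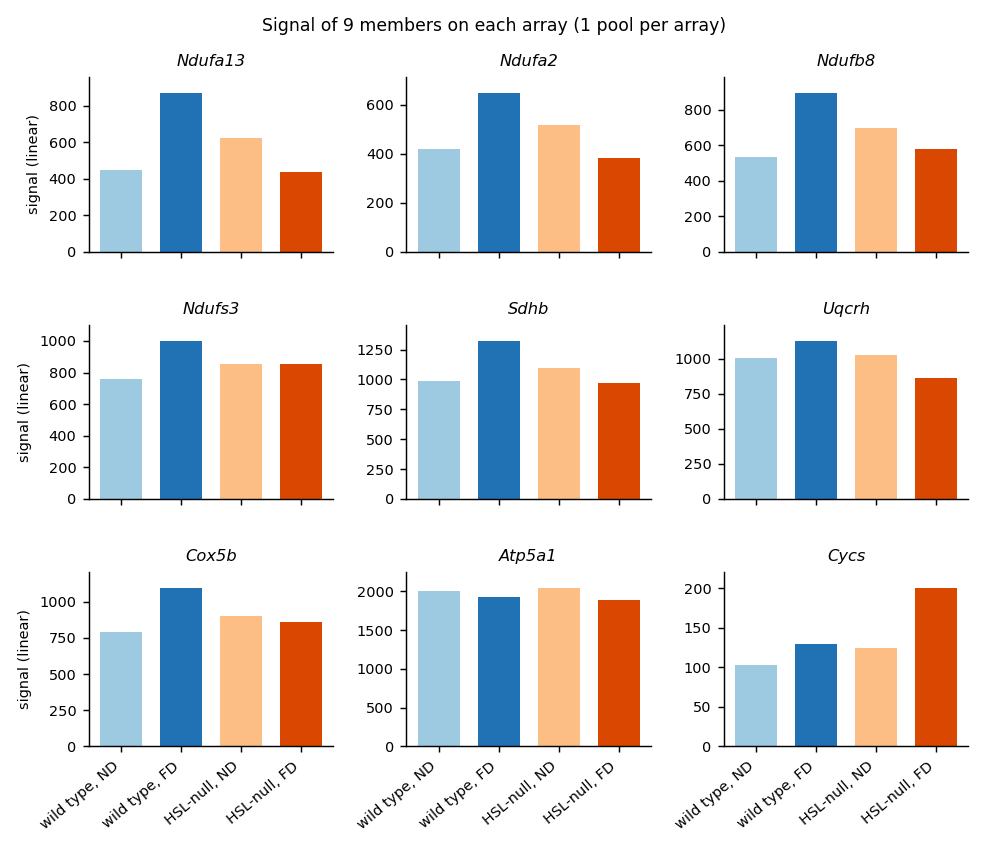
Signal of 9 members on each array on a linear scale starting at 0, in the order wild type on ND and FD, then HSL-null on ND and FD (1 pool per bar, no error bars). The complex I genes, Sdhb, Uqcrh and Cox5b are highest in wild type on FD, Atp5a1 is nearly level from 1890 to 2045, and Cycs is highest in HSL-null on FD, at 200.1.

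The 4 subunits of complex II, which also serves the citrate cycle as succinate dehydrogenase, did not share 1 pattern. Sdhb, the iron-sulfur subunit, had signals of 983.0 and 1325 on the wild-type ND and FD arrays and of 1099 and 973.5 on the HSL-null ones, as in complex I. Sdhd, a membrane anchor, had 1322 and 934.7, and 1294 and 1074, and was the member with the lowest diet ratio in wild type, at -0.50. Sdha, the flavoprotein, had 264.6 and 283.7, and 308.1 and 289.6. Sdhc, the other anchor, had 1160 and 1174, and 1096 and 1014. These last 2 genes had diet ratios between -0.11 and 0.10 in both genotypes.

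Complex III moves electrons from ubiquinol to cytochrome c. Leaving aside Cyc1, whose probe sets disagreed, 6 of the remaining 7 members were lower in HSL-null than in wild type on FD (41.5% of all genes). These 6 ran from Uqcrb at -0.18 to Uqcrh at -0.39. Uqcrh, the hinge subunit near cytochrome c1, had signals of 1005 and 1130 on the wild-type ND and FD arrays and of 1026 and 862.4 on the HSL-null ones. Uqcrb had 1039 and 1226, and 1149 and 1080, and Uqcrc1, a core protein, had 866.8 and 1017, and 881.7 and 826.5. All 3 were highest in wild type on FD. Uqcrq, with the highest signal, had 2950 and 2882, and 2766 and 2383, highest in wild type on ND. Uqcrc2, the other core protein, was the exception on FD, with 627.0 in wild type and 723.3 in HSL-null.

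Cyc1 encodes cytochrome c1, and its 2 probe sets disagreed. The brighter one had signals of 2251 and 2516 on the wild-type ND and FD arrays and of 2357 and 2162 on the HSL-null ones, and a genotype ratio of -0.22 on FD. The other had 640.7 and 411.0, and 577.0 and 547.8, and a ratio of 0.42, so no direction is given for Cyc1. With the mean of the probe sets of each gene, the diet median of complex III in wild type was 0.068.

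Cycs, the somatic cytochrome c that carries electrons between complexes III and IV, was higher in HSL-null on FD than on any other array. Its signals were 102.8 and 129.6 on the wild-type ND and FD arrays, and 124.6 and 200.1 on the HSL-null ones. It was higher on FD in both genotypes, by 1.26-fold and 1.61-fold, and higher in HSL-null on both diets, by 1.21-fold and 1.54-fold. On the HSL-null FD array 6 of 8 members of complex III and 3 of 11 of complex IV had their lowest signal (20% of all genes).

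Complex IV, cytochrome c oxidase, was mixed: 6 of 11 members were highest in wild type on FD (25.4% of all genes), 3 were lowest there (36.1%), and Cox7b and Cox6b2, which lay between, were neither. Cox5b, a subunit on the matrix side, had signals of 790.3 and 1095 on the wild-type ND and FD arrays and of 902.5 and 863.4 on the HSL-null ones. Cox4i1, the ubiquitous form of subunit 4, had 69.5 and 109.8, and 89.4 and 86.1. Its other probe set, under the filter, had 21.9 and 20.4, and 20.1 and 23.6. That probe set gave genotype ratios of -0.12 on ND and 0.21 on FD, each opposite in sign to those of the brighter one. Cox6c had 1979 and 1486 on the wild-type arrays, 1952 and 1998 on the HSL-null ones, so wild type on FD was the lowest array. A second probe set of Cox6c was also lowest there, with 115.3, but had 235.5 in HSL-null on FD against 129.2 on ND. Cox6a1, with the highest signal of complex IV, had 2150 and 1917, and 2148 and 1974, and was lower on FD in both genotypes. The supercomplex factor Cox7a2l, named after its values were seen, was lowest in wild type on FD as well, with 311.4 against 354.2 to 368.5.

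Isoforms of complex IV known from other tissues were dim or uncertain. Cox6b2, the testis form, had 41.2 and 35.9 on the wild-type ND and FD arrays, and 16.9 and 39.3 on the HSL-null ones, a single low value in HSL-null on ND that made its ratios of genotype on ND and of diet in HSL-null the largest among the kept members. Its other probe sets, under the filter, had 28.5, 26.1, 22.9 and 20.8, and 6.3, 4.2, 1.6 and 18.2, the latter at or under the floor on 2 arrays, and the former showed no such low value. Cox8b, a muscle form, had 28.7 and 40.5, and 35 and 27.9, while a second probe set lay between 2.7 and 6.6. Cox8c, a testis form, had 147.3 and 207.9, and 151.2 and 160.4, and at or below 0.9 at its second probe set. The muscle forms Cox6a2 and Cox7a1 had signals of 4.3 to 6.4 and of 6.1 to 10.6. Summed signals of 12 muscle markers were 122.5 to 151.2 over the arrays, with 2 of the 12 at the floor on all 4.

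Complex V, the ATP synthase, had small ratios in the deposited signals. Atp5a1, the alpha subunit of the F1 head, had signals of 2003 and 1935 on the wild-type ND and FD arrays and of 2045 and 1890 on the HSL-null ones. Atp5md, with the highest signal of complex V, had 2233 and 1947, and 2016 and 1858. The 8 members of the Fo part and stalk had a diet median of -0.013 in wild type and of -0.12 in HSL-null, and the 4 of F1 had 0.075 and -0.089. The values in HSL-null again depended on scaling, as the median of complex V there was 0.001 with cyclic loess and 0.011 with quantile normalization.

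Highest in wild type on FD, as most of complex I, were Atp5k, Atp5d, Atp5e and Atp5o. Atp5k, a subunit of the membrane part that takes part in dimer formation, had 69.9 and 110.7 on the wild-type ND and FD arrays, and 77.2 and 91.2 on the HSL-null ones, with diet ratios of 0.66 and 0.24. Atp5d, of the central stalk, had 200.1 and 253.8, and 211.0 and 217.9, and 2 more kept probe sets were also highest in wild type on FD, with 216.2 and 147.0. Atp5e, its neighbour in the stalk, had 639.6 and 734.6, and 680.2 and 619.7. Atp5pb, of the peripheral stalk, went the other way, with 32.9 and 28.6, and 30.9 and 39.7, at low signal.

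Other genes of mitochondrial function were read from lists. Mitochondrial ribosomal proteins translate the subunits encoded by mitochondrial DNA. In the diet comparison of wild type 42 of 57 were above 0 (44% of all genes), with a median of 0.26, 24 were higher past the 0.322 mark (15.8%) and 2 lower (24%). In HSL-null their median was -0.007. Mrps10 had signals of 57.4 and 141.0 on the wild-type ND and FD arrays and of 105.1 and 80.5 on the HSL-null ones, and Mrps25 had 41.9 and 97, and 72.6 and 72.0. The list of adenine nucleotide, phosphate and proton carriers, which also holds metabolite carriers, pores and Atpif1, had 10 kept genes. Their diet median was 0.29 in wild type and 0.19 in HSL-null. In each genotype 9 lay above 0 (44% and 56.9% of all genes). The phosphate carrier Slc25a3 and the uncoupling proteins Ucp1 and Ucp3 were under the filter. Of the adenine nucleotide carriers, Slc25a4 had a diet ratio of 0.149 in wild type and Slc25a5 of -0.145. Slc25a20, the carnitine carrier, had 730.7 and 1009 on the wild-type arrays, 718.7 and 955.8 on the HSL-null ones, higher on FD in both.

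In wild type, the enzymes that feed the chain had lower diet medians than complexes I and III. Their medians lay near those of complexes II (0.059), IV (0.052) and V (-0.013). Matrix dehydrogenases and citrate cycle enzymes had diet medians of 0.032 in wild type and 0.002 in HSL-null over 15 genes. Citrate synthase, encoded by Cs, had 321.2 and 259.4, and 354.7 and 355.3, lowest in wild type on FD. The genes of electron entry other than complexes I and II had 0.027 and 0.016 over 11 genes. Etfdh, which passes electrons from fatty acid oxidation to ubiquinone, was higher on FD in both genotypes, with 417.7 and 543.8, and 512.0 and 671.6. Assembly factors had 0.064 and 0.029 over 17 genes, and import genes -0.004 and 0.080 over 16.

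Regulators of mitochondrial gene expression had a diet median in wild type of -0.12 over 11 genes, with 7 below 0, near the 55.7% of all genes. In the genotype ratio on FD, 9 of 11 were above 0 (58.3% of all genes), with a median of 0.22. Gabpa, a subunit of the ETS factor GABP, had 100.4 and 80.1 on the wild-type ND and FD arrays, and 108.2 and 142.5 on the HSL-null ones. Nrip1, a co-repressor of oxidative genes, had 42.3 and 35, and 43.3 and 63.6. In both genes HSL-null on FD was highest and wild type on FD lowest. Other regulators differed from them. Tfb2m had 68.7 and 71.0, and 105.6 and 100.7, and Mterf3 had 51.2 and 47.2, and 64.2 and 63.5, both highest in HSL-null on ND. Ppara, named after its values were seen, had 343.5 and 368.0, and 333.3 and 302.9. It was highest in wild type on FD and lowest in HSL-null on FD. Ppargc1a and Tfam were under the filter.

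**Figure D5:**
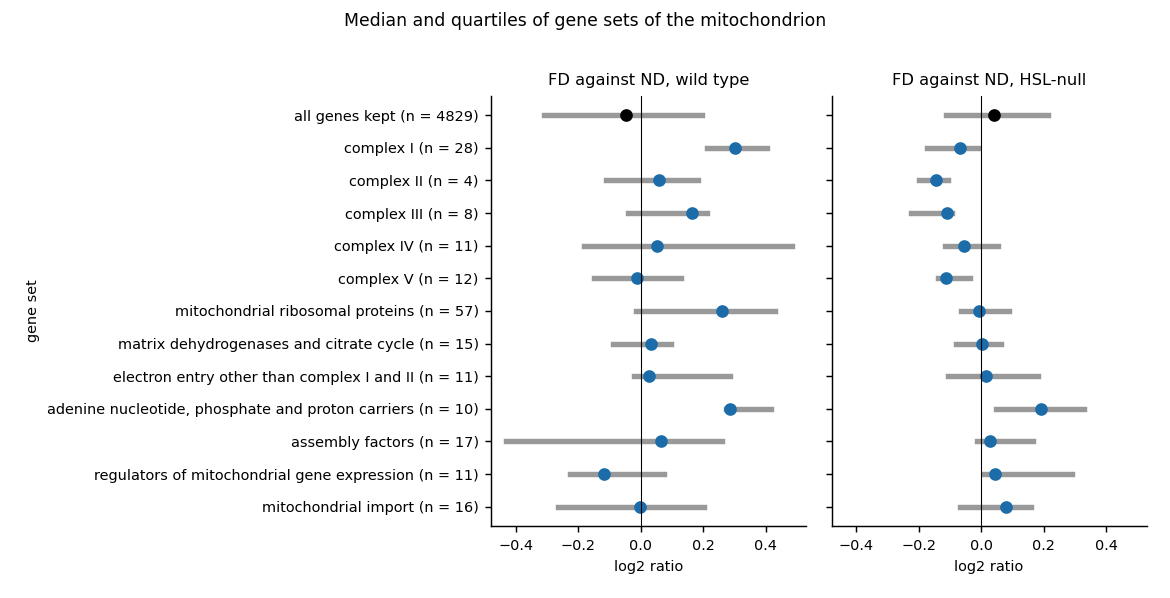
Median (dot) and quartiles (bar) of the log2 ratio of FD to ND for each complex and for 7 lists of other mitochondrial genes, beside all 4829 genes, in wild type (left) and HSL-null (right). Complex I (0.30), the carrier list (0.29) and the mitochondrial ribosomal proteins (0.26) have the highest medians in wild type. The carrier list, which also holds other carriers and pores than its label names, alone remains clearly above 0 in HSL-null (0.19).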

How the data were processed

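Liver RNA of 4 pools was measured on 4 Affymetrix MG_U74Av2 arrays. The deposited table holds 1 linear intensity per probe set and array, made by the authors with MAS5, whose version the submitters' processing notes do not state. The mean after trimming 2% at each end was 100.085 to 100.094 on each array, so values had been scaled. Other deposited files hold run settings, read only for lots and diet names. Of 12488 probe sets, 66 controls were left out of the filter and the floor; 10833 had 1 gene, 396 several and 1193 none in the platform annotation, and 10817 matched a RefSeq table of GRCm38.p6.

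Computed here, in Python 3.11.15 with pandas 2.3.3: floor, log2, filter, the brightest probe set of each gene, log2 ratios, medians and counts, first tested on simulated data. One alternative, other genes of like signal, was chosen after seeing the data. Cyclic loess and quantile normalization used limma 3.58.1 in R 4.3.3. No test was possible with 1 array a group, and the number of arrays limits precision. Gene naming followed a rule: members 2-fold different, the 3 lowest and 2 highest by difference in complexes I, III, IV and V, the brightest of each complex, complex II, cytochromes, core subunits, isoforms, discordant probe sets, and up to 4 genes a list. The members and lists were chosen with earlier results of these data known.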

Additional observations from a re-analysis of the deposited data

Results flagged for a closer look

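Several contrasts went opposite ways in the 2 genotypes or on the 2 diets, which was not tested. The diet log2 ratio had a median of 0.203 over the members in wild type and of -0.093 in HSL-null, and of 0.301 and -0.069 in complex I. With cyclic loess the HSL-null medians were -0.003 over the members and 0.004 in complex I. Single members for which both ratios passed 0.322 in opposite directions are given by their difference of genotype ratios (FD minus ND, log2). For diet in the 2 genotypes they were Ndufa13 (-1.479), Ndufa2 (-1.064) and Cox8b (-0.824). For genotype on the 2 diets they were Ndufa13 again, Ndufb8 (-1.016) and Cox4i1 (-0.714). Each value rests on 4 arrays, 1 per pool, and Cox8b had 3 of 4 signals of its second probe set at or under the floor. The second probe set of Cox4i1, under the filter, gave a difference of 0.334, opposite in sign.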

How the results depend on the processing

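The alternatives were 3 other scalings, 2 other treatments of low signals, 2 other filters, 2 other choices of probe set, structural subunits only, and leaving out 1 complex at a time. Of the members' medians, 69 of 75 alternative values stayed within 0.1 of the reported one, and 68 of 75 counts within 1.5 times. Median scaling gave medians of 0.176 (genotype on ND), -0.398 (genotype on FD), 0.345 (diet in wild type), -0.249 (diet in HSL-null) and -0.563 (difference), and 4 members below 0 for genotype on ND and 10 for diet in wild type; it moved all genes alike. Without complex I the diet median in wild type was 0.050, and the members below 0 were 25 for genotype on FD, 27 for diet in HSL-null and 24 for the difference, fewer members being counted. Without complex V, 10 were below 0 for diet in wild type. Cyclic loess gave 33 below 0 for diet in HSL-null. Of 20 medians of single complexes, 8 changed sign under at least 1 alternative. For complex IV they were genotype on FD (0.042) and the difference (0.029) under the stricter filter, diet in HSL-null (0.029 at most) and genotype on ND (0.129 at most). For complex V they were diet in HSL-null (0.001 with cyclic loess, 0.011 with quantile normalization), diet in wild type (0.014 with quantile normalization, 0.129 with median scaling) and genotype on ND (-0.017 without suffixed probe sets). For complex I it was diet in HSL-null (0.004 with cyclic loess). No paired analysis was possible because each group has 1 array. Leaving out an array would remove a group, so it was not run.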

Other observations

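A further 10 probe sets were annotated to several genes of which at least 1 matched the same symbols, and they are not named. The 8 of them that passed the filter had a median diet log2 ratio of 0.25 in wild type, with 6 above 0 (44% of all genes). In HSL-null the median was -0.11, with 6 below 0 (42.8%). In the genotype ratio on FD, 7 of 8 were below 0 (41.5% of all genes), with a median of -0.28. These values were taken from the deposited signals only, without other scalings.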
